A study of Mus musculus with 8 samples.

Results

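Alcohol and aldehyde dehydrogenases were followed in liver of NZO and B6 mice. The genes were Adh1, Adh4, Adh5, Adh7, Aldh1a1, Aldh1a7, Aldh1b1, Aldh2, Aldh3a2 and Aldh1l1, taken by gene symbol, which made 10 of the 34836 gene names on the array. They were measured by 11 of its 55681 probes, since Aldh1l1 had 2 probes, and each probe was kept separate. The study compared NZO mice, which become obese and prone to diabetes, with B6 mice, which stay lean and resist it, and used the expression differences as 1 part of a search for genetic variants that alter miRNA binding to transcripts, a question not taken up here. NZO was given as strain NZO/HiBomDife and B6 as C57BL/6, with 4 mice in each group and 1 array per mouse. All 8 mice were male, 6 weeks old and fed a high-fat diet with 45% fat, so diet and age were common to both groups and the effect of the diet was not measured. The strains are inbred lines that differ across the whole genome, and a strain difference here cannot be assigned to a locus or to obesity.

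Alcohol dehydrogenases oxidise alcohols, among them ethanol and retinol, to aldehydes, and aldehyde dehydrogenases oxidise these aldehydes to acids. In liver the first step of ethanol clearance runs mainly in the cytosol and the oxidation of the resulting acetaldehyde mainly in mitochondria. Other members of the families oxidise retinaldehyde to retinoic acid, clear formaldehyde, remove long-chain aldehydes from lipids, or act in folate metabolism.

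Aldh1a7 and Aldh1a1 are close paralogues that lie near each other on chromosome 19, and the sequences of their probes are shown because their strain differences had opposite signs. The probe of Aldh1a7 lay at chr19:20767553-20767612 on the minus strand and that of Aldh1a1 at chr19:20717764-20717823 on the plus strand (mm9). The first 30 of their 60 bases, in lower case from the 5′ end, read as follows.
Aldh1a7 probe: ttccttgaactatgtaccatgcatgataac
Aldh1a1 probe: gactagttgtgacttaagctctgtccctca
The longest run of bases shared by both whole probes on either strand was 8 bases, and the best alignment without gaps had 21 identical bases. The probe pairs of Aldh1a7 with Adh4 and with Adh5, genes of another family, each had 22. This compares the probes with each other only, and whether either probe also matches the transcript of the other gene was not tested.

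The promoters of both genes are shown for the same reason. RefSeq gave a promoter entry (build GRCm38.p6, 250 bases before to 50 bases after the start) for 9 of the 10 genes, with 11 entries in all and 2 for Aldh1a1. In the entry of Aldh1a1 that was most like Aldh1a7, 104 of the last 110 bases before the start were identical (94.5%). These lie at chr19:20601858-20601967 on the plus strand for Aldh1a1 and at chr19:20727557-20727666 on the minus strand for Aldh1a7. Both are printed in the direction of the gene, with the differing bases in capitals.
Aldh1a1 promoter: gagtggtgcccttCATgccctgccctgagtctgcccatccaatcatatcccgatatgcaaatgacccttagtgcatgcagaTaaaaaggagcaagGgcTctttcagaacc
Aldh1a7 promoter: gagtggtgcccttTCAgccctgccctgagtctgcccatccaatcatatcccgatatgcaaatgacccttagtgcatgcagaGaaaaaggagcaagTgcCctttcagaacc
Counted backwards from the base before the start, and with the base of Aldh1a1 first, the 6 differences were C97T, A96C, T95A, T29G, G15T and T12C. Both stretches held CCAAT with its first base 72 bases before the start, and ATGCAAAT with its first base 56 bases before it. On either strand, CCAAT was found in 37.4% of the 32851 promoter entries of the genome and in 7 of the 11 entries of the dehydrogenases. ATGCAAAT was found in 1.74% of all entries and in 2 of the 11, and TATAAA in 13.6% and in 3 of the 11. The 3 motifs were chosen after the sequences had been seen, and a match describes the letters only. The sequence is that of the reference genome, and the NZO sequence was not analysed here.

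Signals are given as log2 of the processed signal relative to the 75th percentile of each array, so a value of 0 is the level that 75% of the spots do not exceed. A difference is NZO minus B6 on this log2 scale. A probe was called when limma gave a Benjamini-Hochberg adjusted p of at most 0.05 over all 27623 probes tested together with a log2 difference of at least 0.7 in either direction. The tissue was checked first. The 5 hepatocyte markers Alb, Ttr, Apoa1, Cps1 and Tat were above background on all arrays, and none was called between the strains. Their summed signal was between 11.89 and 11.94 in NZO and between 11.55 and 11.88 in B6 (log2).

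Of the 11 dehydrogenase probes, all passed the filter on dim probes, 1 was called higher and 0 were called lower in NZO. Among all probes tested, 4.33% were called higher and 5.28% lower. Aldh1a7 was the probe called. The unadjusted p of limma with the same fold limit gave the same counts, and Aldh1a1 was the only probe with a lower signal in NZO at an unadjusted limit of 0.05. Without the fold limit, 2 probes passed the adjusted p, Aldh1a7 and Adh4, where 14.2% of all probes did so in either direction. The strains did not overlap for 3 of the 11 probes, Aldh1a7, Adh4 and the brighter probe of Aldh1l1, against 22% of all probes tested. The median difference of the 11 probes was 0.08, with 0.01 over all probes, and the median size of the difference was 0.20, with 0.24 over all probes. In bulk liver, a lower share of cells that express a gene and less RNA per cell cannot be told apart.

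**Figure D1:**
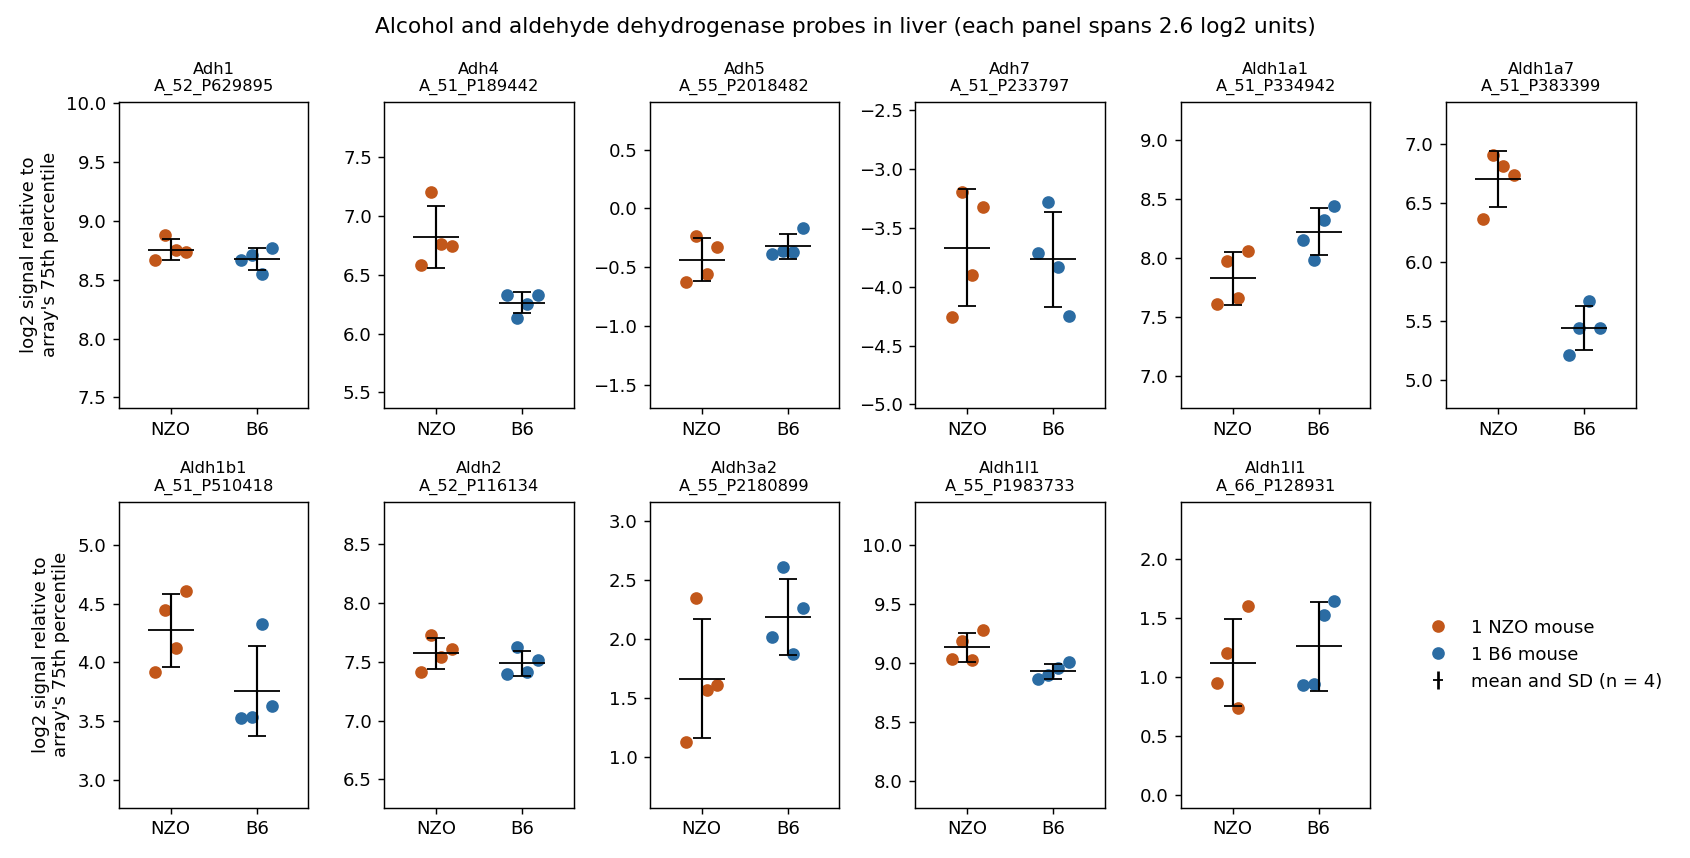
Signal of each dehydrogenase probe on the 8 arrays (y axis, log2 relative to the 75th percentile of the array; each panel spans 2.6 log2 units), with 1 point per mouse and the mean and SD of 4 mice. The NZO points lie above all B6 points for Adh4, Aldh1a7 and the Aldh1l1 probe A_55_P1983733, and the points of the strains overlap in the other panels.

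Aldh1a7 showed the largest strain difference of the 11 probes. It is a rodent aldehyde dehydrogenase of the cytosol that resembles Aldh1a1. Its signal (A_51_P383399) was 6.37, 6.91, 6.81 and 6.74 in NZO mice 007, 003, 009 and 011, and 5.21, 5.44, 5.67 and 5.44 in B6 mice 011, 010, 015 and 009. All NZO values were above all B6 values, and the lowest NZO array, that of mouse 007, still exceeded the highest B6 array. The means were 6.71 ± 0.24 and 5.44 ± 0.18 (SD, n = 4 each), a difference of 1.27 with a standard error of 0.15 and a 95% confidence interval of 0.92 to 1.61. This is a 2.41-fold higher signal in NZO (limma adjusted p = 0.000833). Leaving out any 1 mouse gave 1.19 to 1.38. Within the slide that held both strains the difference was 1.36, and within the scan days it was 1.27 and 1.04. Mouse 003 was the only NZO mouse on that slide and mouse 007 the only one of the second scan day.

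Aldh1a1, its paralogue, is a cytosolic enzyme that oxidises retinaldehyde to retinoic acid. Its signal was 7.61, 7.98, 7.66 and 8.06 in NZO mice 007, 003, 009 and 011, and 8.15, 7.98, 8.32 and 8.44 in B6 mice 011, 010, 015 and 009. The B6 values were mostly the higher ones, but B6 mouse 010 lay among the NZO mice. The difference was −0.40 with a standard error of 0.15 and a 95% confidence interval of −0.74 to −0.05, and the probe was not called (limma adjusted p = 0.126). Within the slide that held both strains the difference of Aldh1a1 was −0.17, with 003 as the only NZO mouse. Within the scan days it was −0.25 and −0.68, the latter with 007 as the only NZO mouse. Over all 8 arrays, the intervals of the paralogues lie on opposite sides of 0. The difference between both responses was not tested.

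**Figure D2:**
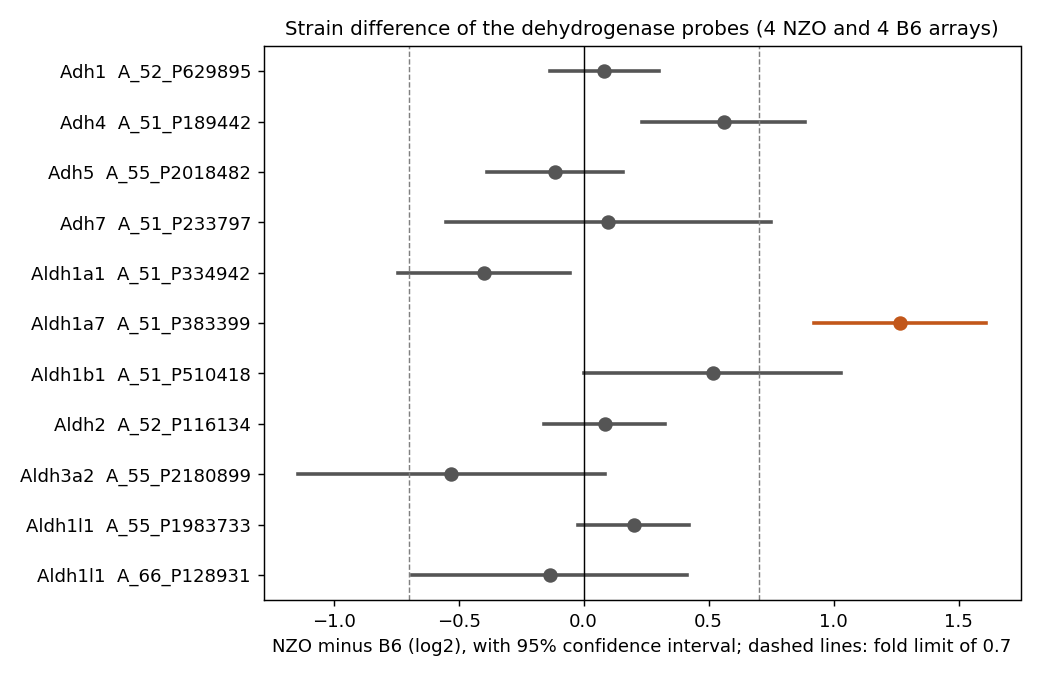
Strain difference of the 11 probes (x axis, NZO minus B6, log2; points are differences, lines 95% confidence intervals from limma, dashed lines the fold limit of 0.7). The interval of Aldh1a7, 0.92 to 1.61, lies beyond the limit, while those of Adh4 (0.23 to 0.89) and Aldh1a1 (−0.74 to −0.05) exclude 0 but cross the limit.

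The alcohol dehydrogenases lie in 1 cluster on chromosome 3, where the probes followed each other in the order Adh7, Adh1, Adh4 and Adh5 from chr3:137894495-137894554 to chr3:138118383-138118442 (mm9). Adh1, the class I enzyme that carries most of the ethanol oxidation in liver, had 8.66, 8.88, 8.75 and 8.73 in NZO mice 007, 003, 009 and 011. In B6 mice 011, 010, 015 and 009 it had 8.67, 8.71, 8.55 and 8.77. The strains overlapped and the arrays of each strain lay close together. The difference was 0.08 with a 95% confidence interval of −0.13 to 0.30 (limma adjusted p = 0.613), so a change of the size of the fold limit lies outside this interval in both directions. Under the deposited table, which was not scaled between arrays, it was −0.17.

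Adh4, the class II enzyme of liver that oxidises retinol and longer alcohols, differed more clearly. Its signal (chr3:138093716-138093775) was 6.59, 7.20, 6.76 and 6.74 in NZO mice 007, 003, 009 and 011, and 6.33, 6.14, 6.26 and 6.33 in B6 mice 011, 010, 015 and 009. The strains did not overlap, and NZO mouse 003 was the highest. The means were 6.82 ± 0.26 and 6.26 ± 0.09 (SD, n = 4 each). The difference of 0.56 (standard error 0.14, 95% confidence interval 0.23 to 0.89) passed the adjusted p of limma at 0.0337, but not the fold limit. Without NZO mouse 003 it was 0.43, and within the shared slide, where 003 was the only NZO mouse, 1.01. Within the scan days it was 0.70 and 0.26, the latter with 007 as the only NZO mouse. The adjusted p went past the limit of 0.05 when any of the mice NZO 009, NZO 011, B6 011, B6 010, B6 015 or B6 009 was left out, with values from 0.0610 to 0.0948.

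Adh5 is the class III enzyme, which oxidises the formaldehyde adduct of glutathione. Its signal was between −0.62 and −0.24 in NZO and between −0.39 and −0.16 in B6, with a difference of −0.11 (95% confidence interval −0.39 to 0.16, limma adjusted p = 0.576). Adh7, the class IV enzyme known from stomach and other epithelia, was at the edge of detection. It was above background on 3 of 4 NZO arrays and on all 4 B6 arrays, and passed the filter through B6. Its values ran from −4.26 to −3.20 in NZO and from −4.25 to −3.28 in B6, and the difference of 0.10 changed its sign when single mice were left out.

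Among the aldehyde dehydrogenases of mitochondria, Aldh2 is the main enzyme of acetaldehyde oxidation. Its probe, whose 60 bases are spread over 554 bases of the genome (chr5:122022137-122022690), had 7.41, 7.73, 7.54 and 7.61 in NZO mice 007, 003, 009 and 011. The B6 mice 011, 010, 015 and 009 had 7.39, 7.62, 7.41 and 7.52. The strains overlapped almost completely, and the difference was 0.08 with a 95% confidence interval of −0.16 to 0.33 (limma adjusted p = 0.650). As for Adh1, this interval lies within the fold limit, and the sign of the difference turned under the deposited table (−0.15) and under quantile normalization (−0.03).

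Aldh1b1, another mitochondrial enzyme that accepts acetaldehyde, had 3.92, 4.45, 4.12 and 4.60 in NZO mice 007, 003, 009 and 011. In B6 mice 011, 010, 015 and 009 it had 3.53, 3.53, 4.33 and 3.63. All NZO mice lay above 3 of the 4 B6 mice, and B6 mouse 015 lay among the NZO mice. The difference was 0.52 with a standard error of 0.22 and did not pass (limma adjusted p = 0.180). Without B6 mouse 015 it was 0.71 and the probe was called (limma adjusted p = 0.0485).

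Aldh3a2, the enzyme of the endoplasmic reticulum that oxidises long-chain fatty aldehydes, had a wide spread within NZO, with an SD of 0.51. Its signal (chr11:61062365-61062424) was 1.12, 2.34, 1.57 and 1.61 in NZO mice 007, 003, 009 and 011, and 2.02, 2.61, 1.87 and 2.26 in B6 mice 011, 010, 015 and 009. NZO mouse 003 lay above 3 of the 4 B6 mice and the other NZO mice below all of them. The difference was −0.53 with a 95% confidence interval of −1.14 to 0.09 (limma adjusted p = 0.244). It was 0.11 within the shared slide, with 003 as the only NZO mouse, and −1.02 within the second scan day, with 007 as the only one. These were the highest and the lowest NZO mouse, so slide or day and mouse cannot be told apart here.

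Aldh1l1, the cytosolic formyltetrahydrofolate dehydrogenase, was read by 2 probes. Probe A_55_P1983733 (chr6:90549091-90549150) had 9.03, 9.19, 9.03 and 9.28 in NZO mice 007, 003, 009 and 011, and 8.86, 8.89, 8.96 and 9.004 in B6 mice 011, 010, 015 and 009. All NZO values were the higher ones, but by little, and the difference of 0.20 (standard error 0.10) did not pass (limma adjusted p = 0.222). Probe A_66_P128931 (chr6:90550028-90550087), which the files assign to another transcript, had values from 0.73 to 1.599 in NZO and from 0.93 to 1.64 in B6. Its difference was −0.14 (limma adjusted p = 0.755), and leaving out 1 mouse gave −0.30 to −0.0069. Both probes stayed without a call.

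Single mice moved many of the probes in the same direction. NZO mouse 007 had the lowest NZO value for 9 of the 11 probes, while it was lowest for 39.3% of all probes tested. NZO mouse 003 had the highest NZO value for 7 of the 11 probes, compared with 35.5% of all probes. In B6, mouse 011 was lowest for 6 of the 11 probes (18.2% of all probes) and mouse 009 highest for 5 (18.9% of all probes). The array of NZO mouse 007 also held the highest summed signal of the skeletal muscle markers Ckm, Acta1, Myh4 and Tnnt3, 4.23, against −2.23 to −1.32 on the other NZO arrays and −1.23 to 2.63 on the B6 arrays (log2). Myh4 was the brightest of them, and 0 of the 5 muscle probes was above background on all 8 arrays. The summed hepatocyte signal of this array was 11.92. The part of the muscle signal in the values of this mouse was not tested, and without this mouse the differences were 1.38 for Aldh1a7, 0.64 for Adh4, −0.33 for Aldh1a1 and −0.35 for Aldh3a2.

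**Figure D3:**
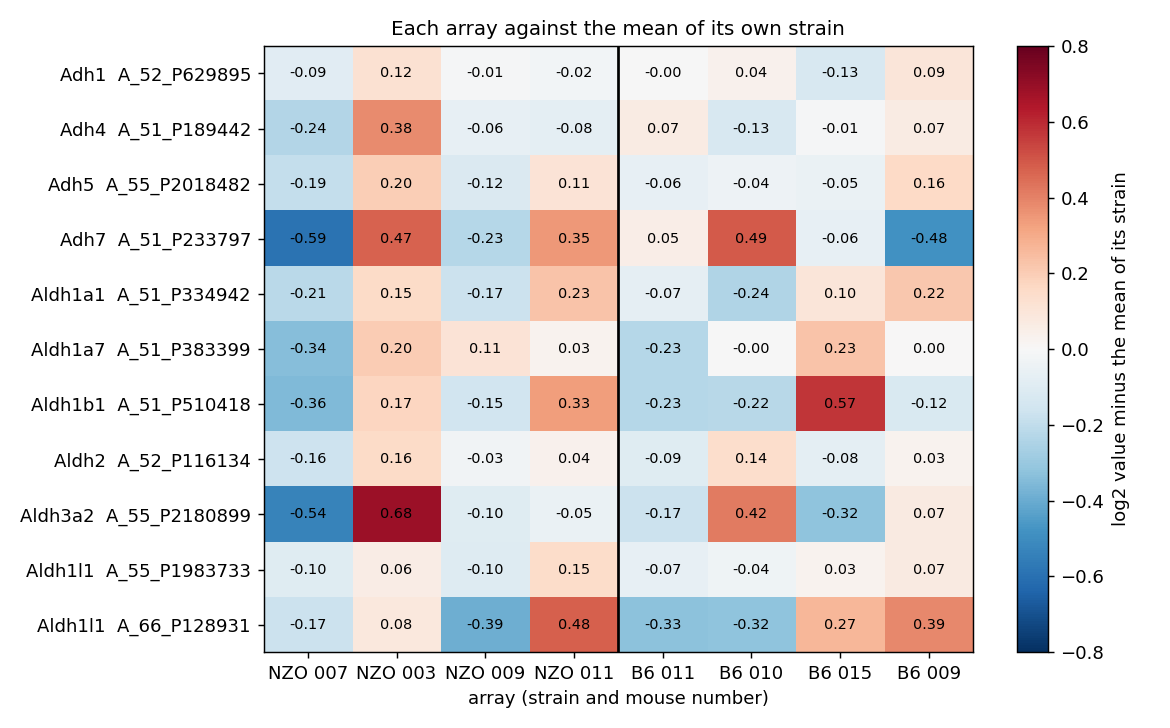
Value of each array minus the mean of its own strain (log2, colours from −0.8 in blue to 0.8 in red) for the 11 probes, with NZO arrays left and B6 arrays right of the line. NZO 007 is below the NZO mean in all 11 probes and NZO 003 above it in all 11, with −0.54 and 0.68 for Aldh3a2.

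Some markers of other cell types also differed between the strains, where 4.33% of all probes tested were called higher and 5.28% lower in NZO. Red blood cell markers were summed to 8.47 in NZO and 7.49 in B6 (log2, means of 4 arrays), with Hba-a1 the brightest, and 2 of 4 probes were called higher in NZO. Cholangiocyte markers were summed to −0.69 and 0.35, with Krt19 the brightest, and 1 of 3 tested probes (Sox9) was called lower. Stellate cell markers gave 5.53 and 5.90, with Dcn the brightest, and 1 of 5 (Pdgfrb) was called lower. Leukocyte markers gave 3.69 and 3.62, with Cd3e the brightest. Of their 6 probes 1 (Itgax, above background on 2 of 4 NZO arrays) was called lower. The differences of Lyz2 (0.41) and Cd3e (0.33) were positive and those of the other 4 probes negative. Adipocyte markers gave 9.22 and 8.75, with Car3 the brightest. None of the 4 tested adipocyte and 2 tested exocrine pancreas probes was called. Car3 did not overlap between the strains and differed by 0.47, which passed the adjusted p of limma at 0.0133 but not the fold limit. Adipoq, Lep and Plin1 as well as Pnlip, Cpa1, Prss2 and Cela3b were not above background on all arrays of either strain. The part of these cells in the strain differences of the dehydrogenases was not tested.

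The other members of both families were read by 23 probes of 17 genes, of which 15 probes were tested. None was called higher and 2 were called lower in NZO, where 4.33% and 5.28% of all probes were, with a median difference of 0.03, and the unadjusted p of limma with the fold limit gave 0 and 2. Aldh16a1 (chr7:52397210-52397269), an atypical member without a clear catalytic residue, had 4.79, 4.78, 4.66 and 4.60 in NZO mice 007, 003, 009 and 011. It had 5.63, 5.32, 5.56 and 5.57 in B6 mice 011, 010, 015 and 009. Every B6 value was above every NZO value, and the difference was −0.81 ± 0.10 (SE, limma adjusted p = 0.00132). With slide as a fixed block it was −0.66, which rests only on NZO mouse 003 against B6 mice 010 and 015. Aldh1a3, a retinaldehyde dehydrogenase mainly of other tissues, was not well above background on any NZO array and was so on all 4 B6 arrays, so it passed the filter only through the strain where it was high. The B6 mean was −3.60 and the NZO mean −4.80 as measured (limma adjusted p = 0.00173). With the normexp background its difference was −0.02. For a floored difference, NZO values were raised to the lowest level found above background on their array, unless already higher. This level is not an upper limit for probes that are not well above background, so a floored difference is not a lower bound. For Aldh1a3 the floored difference was 0.46 on the log2 scale (1.38-fold), under the fold limit of 0.7. Its call thus rests on the signals measured near background. The other 13 tested probes were not called. Their differences ran from −0.32 for Aldh5a1, the succinate semialdehyde dehydrogenase, to 0.57 for Aldh3b3, and these genes are named for their place in that range.

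The lists of the pathways around the dehydrogenases held 78 probes, of which 67 were tested, 6 were called higher and 3 lower in NZO (13.4% called in either direction, with 9.62% over all probes). With probes above background on all 8 arrays the counts were 5 and 2. With slide as a fixed block the difference comes only from the slide with both strains, NZO mouse 003 against B6 mice 010 and 015. The differences of Acss3, Rdh16, Rdh9, Rdh11, Mthfd2 and Hacl1 with this block were 3.78, 1.97, −1.40, 0.84, 1.48 and 0.99, in that order. Over all 8 arrays they were 3.23, 1.63, −1.21, 0.85, 1.33 and 0.73. With 1 NZO mouse, the values with the block cannot show whether these differences hold apart from the slide. The count of rises was 3 when NZO mouse 003, NZO mouse 009, B6 mouse 011, B6 mouse 015 or B6 mouse 009 was left out. In the list of ethanol and acetate metabolism 1 of 8 probes was called (12.5%). Acss3, a mitochondrial acyl-CoA synthetase that activates short-chain acids, had −0.84, −0.05, −0.56 and 0.24 in NZO mice 007, 003, 009 and 011, and −3.32, −4.78, −2.88 and −3.16 in B6 mice 011, 010, 015 and 009. All NZO values were far above the B6 values, of which 3 of 4 were above background, so the probe passed the filter only through NZO. The lowest B6 value, that of mouse 010, was not well above background. The difference as measured was 3.23 ± 0.43 (SE, limma adjusted p = 0.00147). This is not an exact size, since the B6 mean includes mouse 010, and no floored difference was computed for Acss3. The difference was 2.82 without B6 mouse 010, 1.39 with the normexp background and 1.82 with the deposited table. Cyp2e1, the ethanol-oxidising cytochrome, and Cat, the catalase that can also oxidise ethanol, were not called. Their probes differed by −0.37 and −0.17 and by 0.23 and 0.30, and they are named here after their values had been seen.

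Among the genes of retinoid metabolism, 2 of 23 tested probes were called higher and 3 lower, which is 21.7% in either direction, with 9.62% over all probes. Rdh16, a retinol dehydrogenase, had 2.25, 3.10, 2.70 and 2.82 in NZO mice 007, 003, 009 and 011 and 0.70, 1.51, 0.74 and 1.40 in B6 mice 011, 010, 015 and 009. The strains did not overlap, with a difference of 1.63 ± 0.25 (SE, limma adjusted p = 0.00312). Rdh9, a relative of Rdh16 that lies near it on chromosome 10, differed in the other direction by −1.21 ± 0.18 (SE, limma adjusted p = 0.00284), with 0.35 to 0.70 in NZO and 1.35 to 2.18 in B6. Rdh11 was higher in NZO by 0.85 ± 0.21 (SE, limma adjusted p = 0.0309) but was not called without NZO mouse 003, NZO mouse 009, B6 mouse 011, B6 mouse 015 or B6 mouse 009 (limma adjusted p from 0.0749 to 0.0844). Dhrs9 was not well above background on any NZO array and passed the filter only through B6, the strain where it was high. Its mean was −2.63 in B6 against −6.21 in NZO as measured (limma adjusted p = 2.29e-05). The floored difference, which is not a lower bound, was 2.71-fold. With the normexp background the difference was −0.34.

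In folate metabolism, to which Aldh1l1 belongs, 2 of 21 tested probes were called higher and 0 lower, where 4.33% and 5.28% of all probes were. Of the 21 differences 18 were positive, with a median of 0.41, and 51.6% of all probes had a positive difference. Mthfd2, a mitochondrial methylenetetrahydrofolate dehydrogenase, had −1.06, −1.10, −1.42 and −1.47 in NZO mice 007, 003, 009 and 011, and −2.39, −2.20, −2.96 and −2.79 in B6 mice 011, 010, 015 and 009. The strains did not overlap, and the difference was 1.33 ± 0.19 (SE, limma adjusted p = 0.00234), but 0.54 with the normexp background. Without the fold limit 9 of the 21 probes passed the adjusted p, all of them higher in NZO, where 6.77% of all probes were higher by this rule. Among them were 2 probes of Shmt1 and 1 each of Shmt2, Fpgs, Gart, Gldc and Amt, with differences from 0.41 to 0.61, and these genes are named after their values had been seen. The other tested probe of Gart, which was the brighter one, differed by −0.09 (limma adjusted p = 0.622), so the probes of Gart disagreed.

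Among the enzymes that form or also remove aldehydes, 1 of 15 tested probes was called, which is 6.67%, with 9.62% over all probes in either direction. Hacl1, the peroxisomal lyase that releases long-chain aldehydes in the breakdown of phytanic acid, was higher in NZO by 0.73 ± 0.17 (SE, limma adjusted p = 0.0244). It had 6.97 to 7.37 in NZO and 6.01 to 6.76 in B6. The limma adjusted p was 0.0513 to 0.0684 without any of the mice NZO 003, NZO 009, NZO 011, B6 011 or B6 009, and without B6 mouse 015 the difference was 0.58, so that it was called only without NZO mouse 007 or B6 mouse 010 among these fits.

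**Figure D4:**
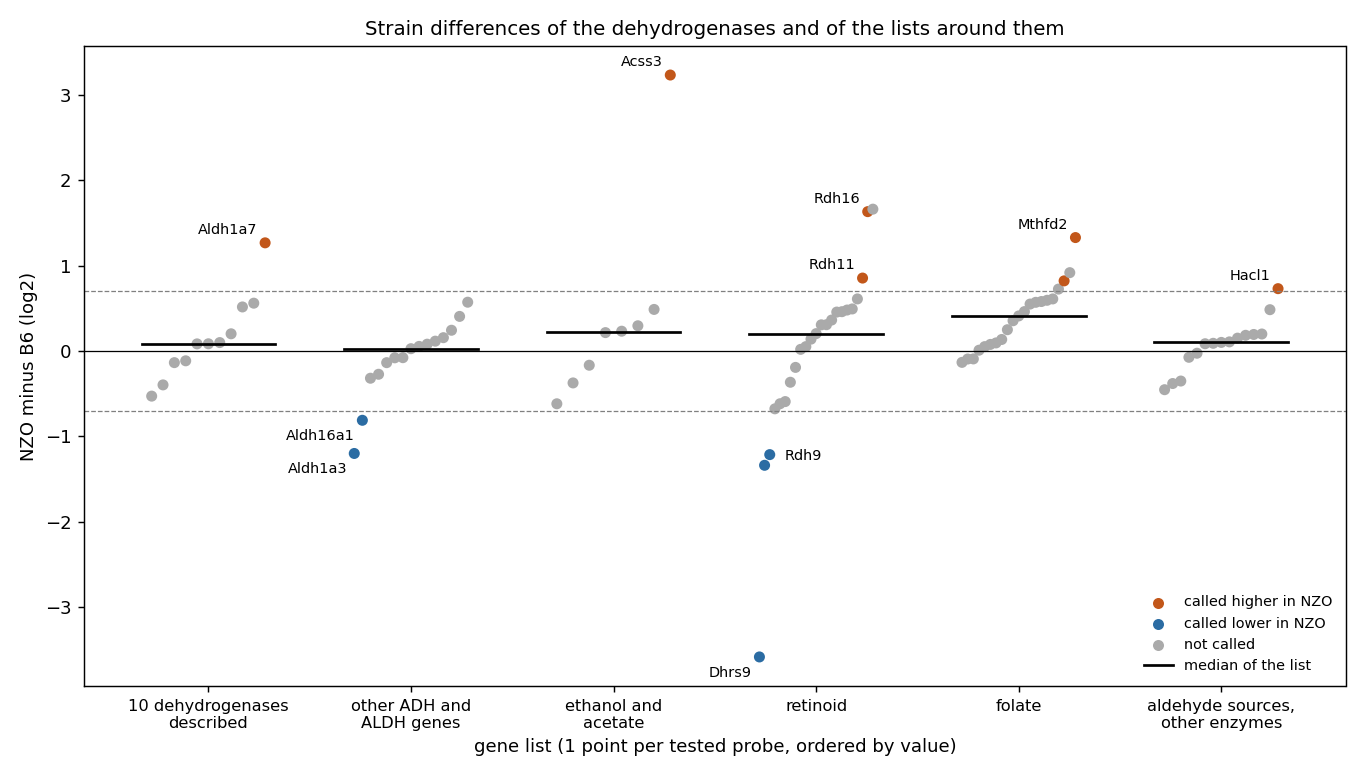
Strain difference of every tested probe (y axis, NZO minus B6, log2) in the 10 dehydrogenase genes and in the lists around them (x axis), with called probes in colour, those described in the text named, medians as black lines and the fold limit of 0.7 as dashed lines. Called probes lie on both sides of 0 in the retinoid list, the folate list has the highest median, 0.41, and the points of Aldh1a3 and Dhrs9 are measured differences from NZO signals not well above background. The point of Acss3 includes the B6 value of mouse 010, which was not well above background.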

How the data were processed

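RNA of 8 livers was hybridised to 1-colour Agilent arrays. The authors deposited the scanner output and a table of all arrays. Per the file headers, Feature Extraction 11.0.1.1 wrote the intensity values (the submitters' processing notes name version 9.1), and its processed signal is the background-corrected intensity without scaling between arrays. The deposited table, named normalized, matched the raw median intensity (to within 0.01) at all 59305 spots of each array. For the mouse arrays the study's methods refer to earlier work, and their normalization is not given in the sources used here. Probe positions are those of the files (mm9). No gene models of that build were used, so exons and UTRs were not assigned.

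Control and outlier spots (96 to 137 per array) were removed. Processed signals were taken as log2 and shifted so that the 75th percentile, a raw value of 119 to 142 in NZO and 136 to 159 in B6, became 0. Spots of the same probe were averaged. Probes well above background on all 4 arrays of NZO or of B6 were tested (27623). On an array 50.4% to 60.1% of spots were above background and 0 were saturated, and the number of arrays limits the precision. limma 3.58.1 (R 4.3.3) fitted NZO minus B6 with no covariate, with the fold limit of the methods, 0.7. Correlations of log2 values were 0.973 to 0.991 between arrays of a strain and 0.951 to 0.966 between strains. The arrays came from 5 slides and 2 scan days, where 1 slide held 1 NZO and 2 B6 arrays and the days held 3 NZO and 2 B6, and 1 NZO and 2 B6 arrays. With slide as a fixed block the difference therefore rests on NZO mouse 003 against B6 mice 010 and 015. The scan day with 1 NZO array was that of NZO mouse 007. The RefSeq promoters were read with pandas 2.3.3 and plots drawn with matplotlib 3.10.9 (Python 3.11.15).

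All probes of the 10 dehydrogenase genes were named, and of each further list the genes with a called probe, at most 4 in each direction. Single values of 2 called list genes are not reported here, although counts and medians include them. 2 list probes were named through their accession only. Genes, lists and tests were chosen with earlier results of these data known. Alternatives were the background correction, the scaling, the deposited table, the filter, slide, scan day, the mouse number as a block, the methods' t-test with Welch correction, the outlier spots, other call rules and leaving out each mouse.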

Additional observations from a re-analysis of the deposited data

Results flagged for a closer look

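Values within each strain were checked for arrays that stood apart in groups of 4, over 22 groups (11 probes in both strains), of which chance alone gives about 1 in 20. 2 such arrays were found. For Aldh1b1, B6 mouse 015 had 4.33, while the other B6 mice had 3.53 to 3.63. For Adh5, B6 mouse 009 had −0.16, while the other B6 mice had −0.39 to −0.36.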

How the results depend on the processing

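Aldh1a7 stayed higher in NZO in all 19 alternatives, with differences from 1.06 to 1.45 and a limma adjusted p from 0.000134 to 0.0656, and it lost its call only with the replicate block. Adh4 ranged from 0.34 to 1.01 and Aldh1a1 from −0.63 to −0.17, where 1.01 and −0.17 are with slide as a fixed block. In the other alternatives the limma adjusted p was 0.0134 to 0.233 for Adh4 and 0.0188 to 0.402 for Aldh1a1. The mouse numbers 009 and 011 occur in both strains, but the labels do not say that they pair the mice. The correlation of deviations was −0.26 and −0.00397 for these numbers. Blocking by number takes the strain difference only from NZO mice 009 and 011 against B6 mice 009 and 011. Arrays whose number is not shared between the strains add nothing to it. Whether calls were lost here through pairing or through the smaller number of arrays was not tested. With the mouse number as a replicate block, called counts were 72 higher and 134 lower among all probes, 0 higher among the dehydrogenase probes, 0 lower among the other members of the families, and 0 higher and 1 lower in the pathway lists, and Aldh1a7 differed by 1.45 (adjusted p = 0.0656).

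Among all probes, 1197 were higher and 1459 lower. Higher counts were 616 with normexp, 576 with the deposited table, 498 with slide as a fixed block and 1871 without the fold limit. Lower counts were 583 with normexp, 959 for probes above background on all 8 arrays and 890 with the methods' t-test after Benjamini-Hochberg adjustment. Of the called probes 45.1% were higher, against 28.8% with the deposited table and 35% with the replicate block. The deposited table moved the median of all probes to −0.15. The dehydrogenase probes called higher were 2 without the fold limit and 1 to 2 when a mouse was left out. For the other members of the families, 1 was lower with normexp, with the deposited table and with the filter on all 8 arrays. When a mouse was left out 0 to 1 of them were higher (1 without NZO mouse 011). In the pathway lists 3 were higher with normexp, 2 with the deposited table, 3 without a filter, 1 with the slide block, 3 with the methods' t-test, 16 without the fold limit and 3 to 6 when a mouse was left out, and 5, 1 and 7 were lower with the deposited table, the slide block and no fold limit.

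The other family members and the pathway lists had 11 called probes. Of these, 10 were not called with the replicate block, which rests on fewer arrays, 5 with normexp and 5 with the deposited table. With the slide block only Aldh16a1 (−0.66) of these 11 fell under the fold limit. With the replicate block only Hacl1 (0.67) did so. Signs turned only for differences that were not called, in 11 cases. These were Adh1 with quantile normalization (−0.0029) and the deposited table (−0.17), Aldh2 with the same settings (−0.0325 and −0.15), Aldh1l1 probe A_55_P1983733 with the deposited table (−0.0097), Adh5 and Aldh3a2 with the slide block (0.13 and 0.11), and Adh7 with scan day as a term (−0.0469) and when a mouse was left out (−0.0625 to 0.295). The causes were not tested. Signal near background limits Adh7, Aldh1a3, Dhrs9 and Acss3, which were not tested with the filter on all 8 arrays.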
